A study of Mus musculus with 425 samples.

Results

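The miR-200 family of the mouse is made of Mir200a, Mir200b, Mir200c, Mir141 and Mir429, and all 5 genes had a row in the deposited small RNA tables (Mir200a_seq, Mir200b_seq, Mir200c_seq, Mir141_seq and Mir429_seq), among 2343 small RNA features of which 1123 were miRNAs. The members were taken by name as a whole family, with earlier results of these data known, and every one of them passed the filter on low counts in each comparison. The family is best known from epithelia, where its members bind the mRNAs of Zeb1 and Zeb2, repressors of E-cadherin, and so help to keep cells epithelial. Zeb1 and Zeb2 in turn repress the miR-200 genes, which makes a double-negative loop. The epididymis, the long duct in which sperm mature and are stored, is lined by an epithelium, and its vesicles are known to carry RNA to passing sperm.

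The members fall into a pair of groups by their seed, the bases 2 to 8 at the 5′ end that do most of the pairing with a target. The mature 3p sequences are shown because the results below turn on how alike the members are, with the seed in capitals and the rest in lower case, 5′ to 3′, from RefSeq (GRCm38.p6). The first 3 carry one seed and the last 2 the other.
mmu-miR-200b-3p: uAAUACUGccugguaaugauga
mmu-miR-200c-3p: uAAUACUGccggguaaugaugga
mmu-miR-429-3p: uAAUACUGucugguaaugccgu
mmu-miR-200a-3p: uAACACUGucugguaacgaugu
mmu-miR-141-3p: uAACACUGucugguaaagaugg
The seeds differ by a single base, C4U from miR-141-3p to miR-200b-3p, counted from the 5′ end. Among 1679 mature mouse sequences in the table, the first seed belonged to no sequence other than these 3 and the other seed to no sequence other than these 2. miR-141-3p and miR-200a-3p differed at 2 of 22 positions (A17C and G22U), and miR-200b-3p and miR-200c-3p also at 2 of 22 (U11G and A22G). Each deposited row bears the name of a gene and does not tell its 5p and 3p arms apart, and how reads that match near-identical members were shared out is not given in the sources used here.

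Seed and genome position cross each other. On the minus strand of chromosome 4 (GRCm38), the cluster at 156053905 to 156055750, 1846 bp long, holds Mir200b (156055681 to 156055750), Mir200a (156054896 to 156054985) and Mir429 (156053905 to 156053987). All 3 lie inside the protein-coding gene Ttll10 and inside the non-coding gene Gm13648 on the same strand. Mir429 overlaps an exon of Gm13648 (156052715 to 156054029), whereas Mir200a and Mir200b are intronic. On the minus strand of chromosome 6, the cluster at 124717914 to 124718390, 477 bp long, holds Mir200c (124718322 to 124718390) and Mir141 (124717914 to 124717985) within Gm15884, a gene annotated as antisense. Mir141 overlaps the single annotated exon of Gm29008 on that strand (124717647 to 124717944). Mir200a therefore has the seed of Mir141 and the cluster of Mir200b and Mir429.

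The study deleted Dgcr8, the RNA-binding partner of Drosha that is needed to cut most miRNA hairpins, in a pair of mouse lines. Dgcr8fl/fl; Stra8-iCre mice (Stra8 cKO) lose it in germ cells, where the Stra8 promoter is active, and Dgcr8+/fl; Stra8-iCre mice were their controls. In Dgcr8fl/fl; Defb41-iCre mice (Defb41 cKO, named with Defb-iCre on the sperm samples), Cre follows the promoter of the epididymal defensin Defb41, and Dgcr8+/fl; Defb41-iCre mice were the controls. Every control thus carried 1 floxed allele and the Cre of its line, and no wild type group entered these comparisons. In mRNA of Stra8 controls, Defb41 itself stood at 189 ± 40.7 TPM (transcripts in every 1000000) in caput (SD, n = 3) and at 0.483 ± 0.43 TPM in cauda (SD, n = 4).
Small RNA was sequenced from testis sperm (4 control and 4 cKO libraries in each line), cauda sperm (4 and 4 in the Stra8 line, 8 and 8 in the Defb41 line), caput epididymis (7 and 7 Stra8, 3 and 3 Defb41) and cauda epididymis (6 and 8 Stra8, 4 and 3 Defb41), 81 libraries in all. The labels do not tell whether replicates are separate animals. If they are not, the p-values describe only how libraries vary, and part of that may be technical. No ages are given.

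The libraries held between 615991 and 38690140 assigned reads, and the 5 members together between 315 and 136480. No 2 libraries of the same group agreed within sampling noise, and libraries of different groups were not compared in this way. The library of 615991 reads is a Defb41 control caput (replicate 2), and its values are given beside the results they touch. The labels name the libraries by 2 schemes, called library series 1 and 2 here; both occur in the Stra8 epididymis and in the Defb41 cauda sperm, and what sets them apart is not stated. Levels are given as RPM, the reads of a feature in every 1000000 assigned reads, and rise or fall with all other small RNAs in a library. Library making favours some sequences, so an order of members in reads is not an order in molecules. In such bulk samples, fewer cells of a type and less RNA per cell cannot be told apart.

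The family's summed level was lowest in testis sperm and reached its highest values in cauda epididymis, and Mir141 led it nearly everywhere. Each member had at least 1 read in each of the 81 libraries. Mir141 was the most abundant member in 77 of 81, Mir429 in 3 and Mir200b in 1, while Mir200c was the least abundant in 53. Summed over the members, the family took 32.5 to 103 RPM in Defb41 testis sperm and 66.0 to 1188 RPM in Stra8 testis sperm. In cauda sperm the sum was 1133 to 6921 RPM in the Stra8 line and 251 to 5510 RPM in the Defb41 line. In caput it was 2157 to 7666 RPM (Stra8) and 1175 to 4118 RPM (Defb41), and in cauda epididymis 3377 to 13870 RPM and 2435 to 10484 RPM. As a share of the miRNA reads alone, the family took 1.29 to 2.94% in Stra8 cauda sperm, all of series 1. In Stra8 cauda epididymis it took 0.48 to 0.695% in series 1, below every sperm library, and 1.84 to 2.2% in series 2.

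**Figure D1:**
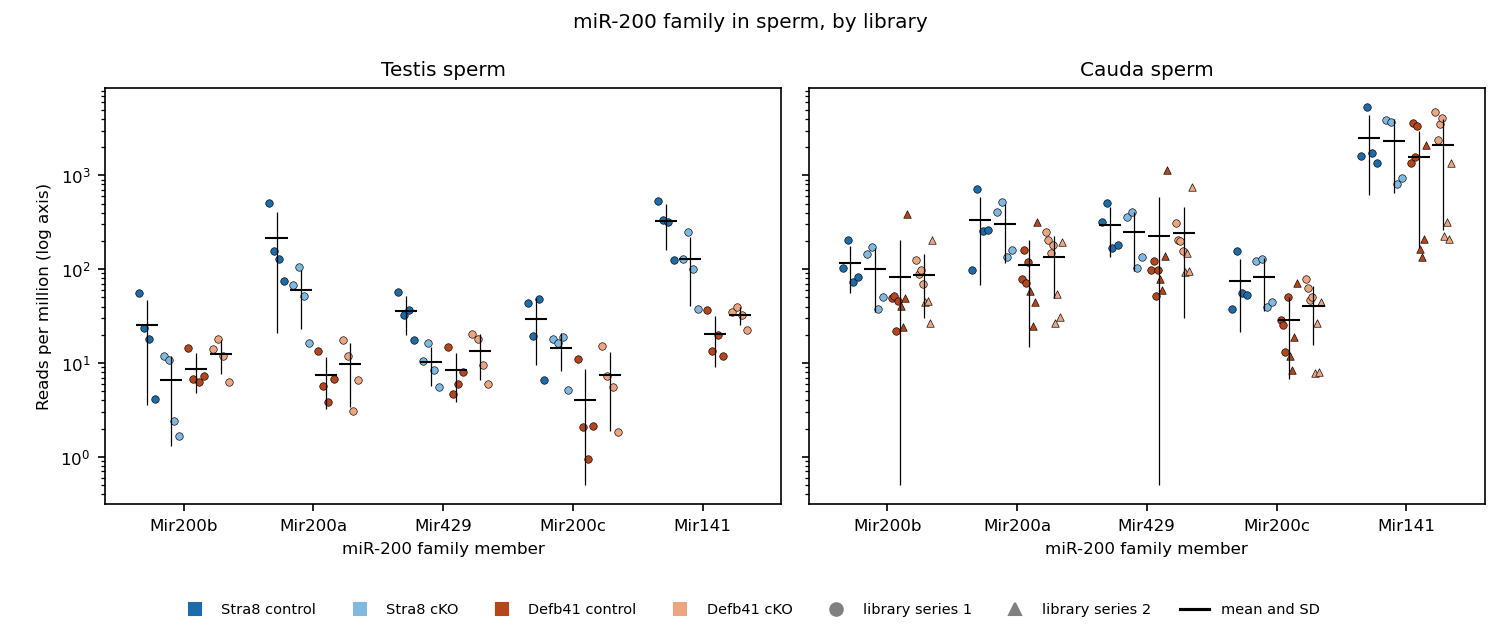
Level (RPM) of each member in testis sperm (left) and cauda sperm (right), on a log axis, 1 point per library, coloured by line and genotype and shaped by library series, with the group mean and SD; SD bars that would pass below the axis end at its lower limit. Mir141 stands at 11.98 to 530.1 RPM in testis sperm and at 134 to 5339 RPM in cauda sperm, and the Stra8 libraries lie above the Defb41 libraries for Mir141 and Mir200a in control testis sperm.

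Mir141, which carries the AACACUG seed, was also the member with the widest range. In Stra8 control testis sperm its level was 530.1, 337, 317 and 125 RPM in replicates 1 to 4. In Defb41 control testis sperm it was 36.7, 13.4, 19.99 and 11.98 RPM, below every Stra8 control library. In Stra8 control cauda sperm it was 1602, 5339, 1733 and 1363 RPM, so that replicate 2 stood apart from the other 3. In Stra8 control caput it ran from 1733 through a median of 2581 to 6584 RPM (n = 7), and in cauda epididymis from 3698 through a median of 4472 to 12320 RPM (n = 6). Ordered by group mean, the 16 groups ran from 7263 ± 4091 RPM in Stra8 cKO cauda epididymis (SD, n = 8) to 20.5 ± 11.3 RPM in Defb41 control testis sperm (SD, n = 4). Of the 15 neighbouring pairs in that order, 4 differed by more than their SDs, all in the lower part of the order. Defb41 control caput (1545 ± 581 RPM) stood above Defb41 cKO caput (473 ± 279 RPM), and each of the 4 testis sperm groups stood above the next, in the order Stra8 control, Stra8 cKO, Defb41 cKO and Defb41 control. The 10 groups above Defb41 control caput, all the cauda sperm groups among them, did not differ from their neighbours beyond their SDs.

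Mir200a, with the same seed, spread less between sites. Its control means were 215 ± 194 RPM in Stra8 testis sperm, 331 ± 262 RPM in Stra8 cauda sperm, 206 ± 131 RPM in Stra8 caput and 259 ± 193 RPM in Stra8 cauda epididymis (SD, n = 4, 4, 7 and 6). Its Stra8 control testis sperm libraries read 502, 156, 129 and 74.4 RPM, so replicate 1 lay above the others. In Defb41 control testis sperm the values were 13.5, 5.67, 3.88 and 6.76 RPM, below each of those. In the order of the 16 groups only 1 of 15 neighbouring pairs differed by more than its SDs, Defb41 cKO caput at 53.8 ± 15.4 RPM above Defb41 cKO testis sperm at 9.82 ± 6.40 RPM (SD, n = 3 and 4).

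Mir429 and Mir200b, the AAUACUG members of the chromosome 4 cluster, had their highest levels in the Defb41 epididymis. Mir429 stood at 727, 3060, 1983 and 2385 RPM in Defb41 control cauda epididymis and at 1737, 1066 and 1225 RPM in its cKO. In the 14 Stra8 cauda epididymis libraries it ran from 118 through a median of 140.2 to 429 RPM, with no overlap. Mir200b stood at 1314, 672 and 678 RPM in Defb41 control caput and at 667, 368 and 313 RPM in its cKO, against 95.6 through a median of 143 to 242 RPM in the 14 Stra8 caput libraries, again with no overlap. In testis sperm both were low in each line. Mir429 read 56.5, 32.9, 37.1 and 17.8 RPM in Stra8 controls and 14.9, 4.64, 5.998 and 7.99 RPM in Defb41 controls. Mir200b read 55.5, 23.6, 18.0 and 4.16 RPM in the former and 14.6, 6.70, 6.23 and 7.27 RPM in the latter. Of 15 neighbouring pairs of groups, 3 differed by more than their SDs for each of these members.

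Mir200c, the AAUACUG member of the chromosome 6 cluster, varied little within the Stra8 epididymis. Its control means were 119 ± 16.6 RPM in Stra8 caput, 123 ± 36.4 RPM in Stra8 cauda epididymis and 75.1 ± 38.7 RPM in Defb41 cauda epididymis (SD, n = 7, 6 and 4). In Defb41 control caput it read 51.4, 369 and 57.0 RPM, and the high value is the library of 615991 reads. Testis sperm held 43.9, 19.4, 48.7 and 6.52 RPM in Stra8 controls and 10.96, 2.06, 0.941 and 2.15 RPM in Defb41 controls. The lowest of these rests on 8 reads, and 3 reads would be the floor of detection in any library.

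**Figure D2:**
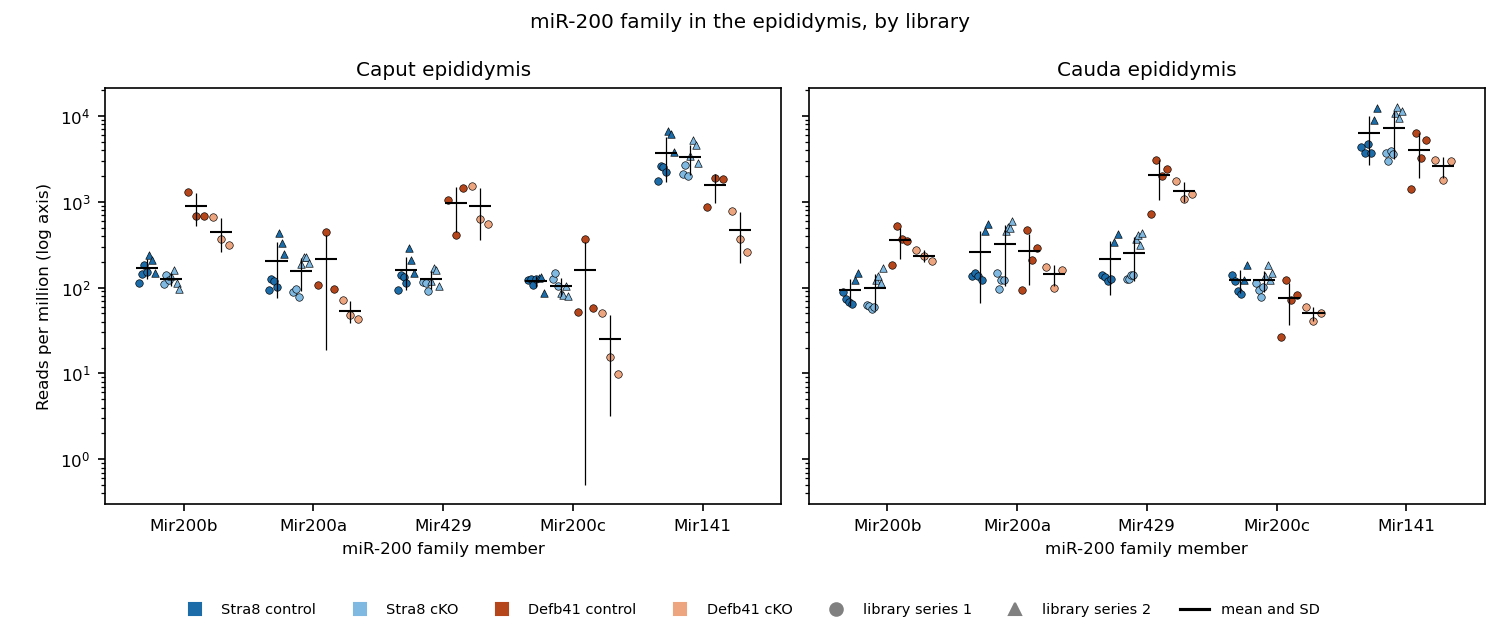
Level (RPM) of each member in caput (left) and cauda epididymis (right), on a log axis, 1 point per library, with colours, shapes and bars as in the plot of sperm and with SD bars that end at the lower axis limit where they would pass it. Mir141 is the highest member in Stra8 tissue, at 1733 to 12635 RPM, and Mir429 and Mir200b stand higher in Defb41 than in Stra8 tissue.

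The mix of members does not depend on the other small RNAs, and in the epididymis its ranges did not overlap between the lines for Mir141. In Stra8 cauda epididymis, Mir141 made up 88.7 to 91.8% of the family's reads and Mir429 2.33 to 3.74% (n = 14). In Defb41 cauda epididymis, Mir141 made up 55.2 to 64.5% and Mir429 26.5 to 33.8% (n = 7). In caput the shares of Mir141 were 80.4 to 89.2% in the Stra8 line (n = 14) and 22.1 to 50.3% in the Defb41 line (n = 6). The share of 50.3% is that of the library of 615991 reads. In testis sperm Mir141 held 44.6 to 62.6% (Stra8) and 33.1 to 54.0% (Defb41), and Mir200b 1.34 to 4.95% against 13.8 to 20.6% (n = 8 each).

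The ratio of each member to Mir141 in controls was compared between lines with an exact two-sided permutation test, in 16 tests that were chosen after the values were seen. The ratio of Mir429 was higher in the Defb41 line by 3.96 on the log2 scale in cauda epididymis, by 3.67 in caput and by 1.84 in testis sperm. That of Mir200b was higher by 2.56, 3.51 and 2.85 at the same sites, and that of Mir200a by 0.79 in cauda epididymis. In these 7 tests the libraries of the lines did not overlap, and each gave the smallest p that its numbers allow, 0.00952 in cauda epididymis, 0.0167 in caput and 0.0286 in testis sperm. After Benjamini-Hochberg adjustment over the 16, none was below 0.05, with 0.0508, 0.0533 and 0.0653 at the 3 sites. The ratio of Mir200c, the cluster mate of Mir141, differed by -0.17 in cauda epididymis, 0.97 in caput and 0.87 in testis sperm, with overlap at each (p = 0.524, 0.2 and 0.257, exact permutation test). Line and library preparation cannot be told apart at these 3 sites. In cauda sperm, where the Defb41 libraries are of both series, the 4 ratios differed by -0.32 (Mir200a) to 0.27 (Mir200b), all with overlap. These values average over the series, whose means lay on either side of the Stra8 mean. The mean log2 ratio of Mir429 was -2.99 in the Stra8 line, -4.67 in Defb41 series 1 and -0.93 in Defb41 series 2. For Mir200b it was -4.31, -5.81 and -2.26, for Mir200a -3.02, -4.46 and -2.21, and for Mir200c -5.04, -6.41 and -4.02. The lines were not tested within a series.

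In Defb41 cauda sperm, where both library series were made from the same line, the mix of series 1 and that of series 2 did not overlap. In series 1, the ratio of Mir429 to Mir141 was 0.0288 to 0.0723 in controls and 0.0383 to 0.0848 in cKO. In series 2 it was 0.444 to 0.658 in controls and 0.406 to 0.548 in cKO. The series 2 values overlap those of Defb41 cauda epididymis (0.411 to 0.613), and the series 1 values lie nearer to Stra8 cauda epididymis (0.0254 to 0.0421). All 4 ratios to Mir141 were higher in series 2 with no overlap in both genotypes (log2 difference of Mir429 3.74 in controls and 2.997 in cKO, 4 libraries of each series). Each of these 8 differences had p = 0.0286, the smallest the exact permutation test allows, and 0.0686 after adjustment over 24 such tests. The mix also split by series in the Stra8 epididymis. The ratio of Mir200c to Mir141 was lower in series 2 by 1.34 and 1.32 in control and cKO caput and by 0.87 and 1.03 in control and cKO cauda, without overlap in any of the 4 groups. That of Mir200b was lower by 0.84 and 0.79 in caput, also without overlap, and that of Mir429 differed by at most 0.45. None of these passed after adjustment (lowest adjusted p 0.0686, exact permutation tests).
Between the series, Mir141 had the wider gap in level and Mir429 the smaller. The level of Mir141 in Defb41 control cauda sperm was 1358, 3573, 1553 and 3381 RPM in series 1 and 166, 134, 208 and 2081 RPM in series 2. In the cKO it was 4750, 2397, 3543 and 4108 RPM in series 1 and 228, 319, 210.0 and 1359 RPM in series 2. Replicate 8 was the high library of series 2 in both genotypes. Mir429, in contrast, read 98.2, 124, 51.3 and 97.3 RPM in series 1 controls and 79.5, 59.5, 137 and 1139 RPM in series 2 controls. The mean Mir141 level differed between series with p = 0.0857 in controls and 0.0286 in cKO (exact permutation test, adjusted p = 0.184 and 0.122 over 30 tests of level). In series 2 of this site, miRNAs took 2.47 to 33.1% of reads, against 8.37 to 35.3% in series 1. The miRNA total in the deposited table of RNA classes was 0.48 to 0.974 times the sum of the miRNA rows there, and equal to it in every other group. The part of these differences in the mix was not tested.

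**Figure D3:**
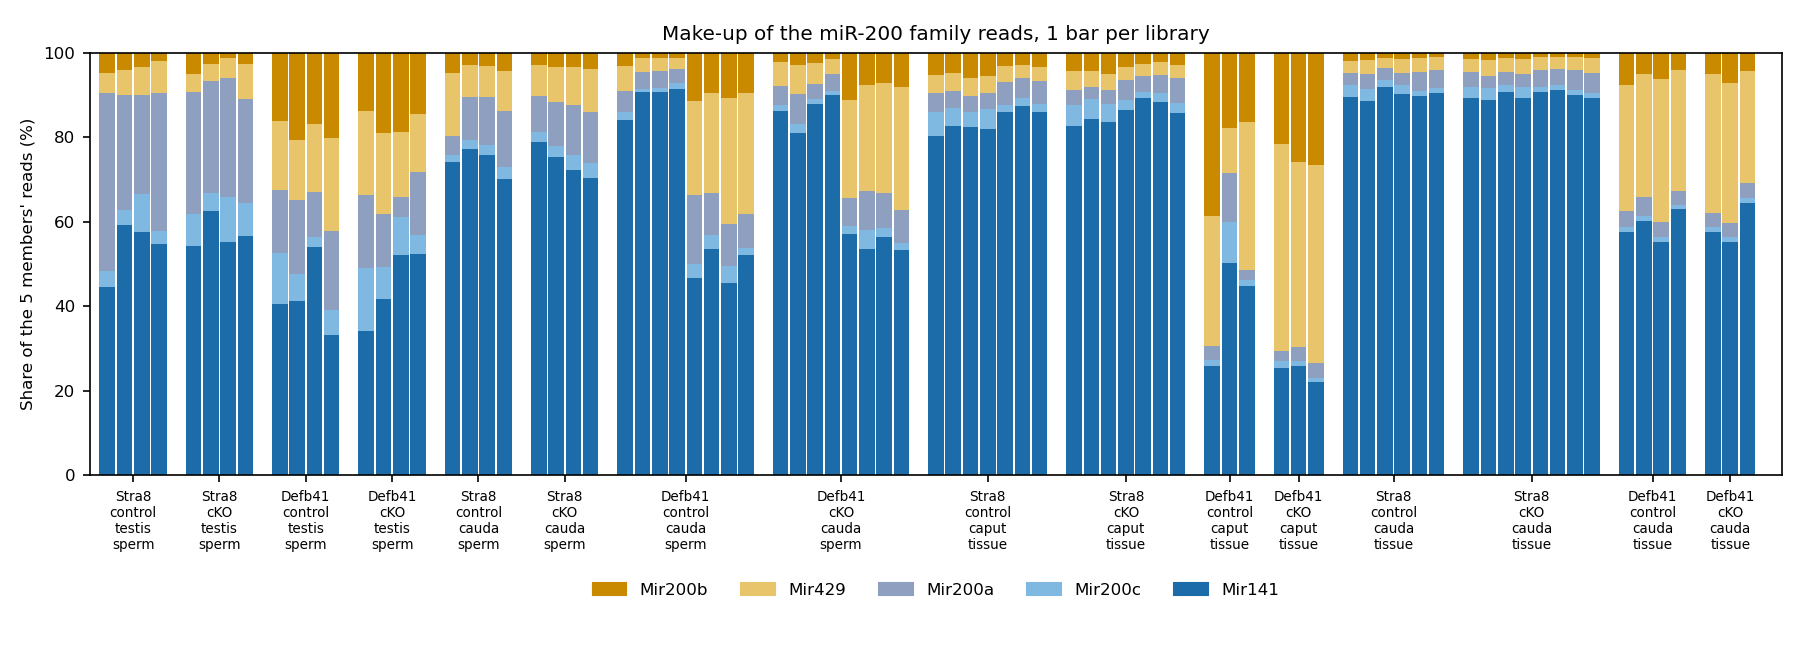
Share of each member in the reads of the family (percent, stacked to 100), 1 bar per library, grouped by line, genotype and site; within a group, series 1 libraries come before series 2. Mir141 takes 88.7 to 91.8% of each bar in Stra8 cauda epididymis and 55.2 to 64.5% in Defb41 cauda epididymis, and in the Defb41 cauda sperm groups the 4 series 2 bars on the right differ from the 4 series 1 bars.

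In the Stra8 line, cauda sperm had a different mix from cauda epididymis. Mir429 made up 7.33 to 14.9% of the family in Stra8 cauda sperm (n = 8) and 2.33 to 3.74% in Stra8 cauda epididymis (n = 14), with no overlap. Mir141 made up 70.2 to 78.9% in the sperm and 88.7 to 91.8% in the tissue, also with no overlap. No test of this difference was run.

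Across the 16 group means, levels on the log2(RPM + 1) scale followed seed and cluster to different degrees. Pearson's r was 0.96 for the chromosome 6 mates Mir200c and Mir141, and 0.94 for Mir200b and Mir429, which share both seed and cluster. Mir200a had r = 0.91 with both members of the chromosome 6 cluster, and r = 0.60 and 0.67 with Mir200b and Mir429 of its own cluster. Over the 81 single libraries the same pairs gave 0.91, 0.92, 0.89 for Mir200a with Mir141, 0.86 with Mir200c, 0.64 with Mir200b and 0.68 with Mir429. The points share libraries, depth and denominators, and these values are descriptions.

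The passage from testis to cauda is when sperm meet the epididymal epithelium, and the comparison of cauda with testis sperm asks which RNAs they gain or lose. Mir141, Mir429, Mir200b and Mir200c rose in all 4 combinations of line and genotype, and Mir200a in 3 of them. In Stra8 controls 4 of 5 members rose, where 19.2% of all features did. In Defb41 controls 5 of 5 rose (17.7% of features), as did 5 of 5 in Stra8 cKO (28.5%) and in Defb41 cKO (9.11%). The Defb41 comparisons used the series 1 libraries.
Mir141 rose by 2.94 (SE 0.52) on the log2 scale in Stra8 controls (edgeR, adjusted p = 3.1e-05, 4 against 4 libraries) and by 6.91 (SE 0.68) in Defb41 controls (edgeR, adjusted p = 1.17e-16). All its cauda sperm libraries lay above all testis sperm libraries of the same line in both. Mir429 rose by 3.04 (SE 0.50) and 3.46 (SE 0.72), and Mir200b by 2.21 (SE 0.58) and 2.27 (SE 0.71). Mir200c rose by 1.35 (SE 0.56, edgeR adjusted p = 0.0354) in Stra8 controls and by 2.86 (SE 0.76) in Defb41 controls. The Stra8 call of Mir200c did not hold without testis sperm replicate 2 (1.19) or 4 (1.01) or without cauda sperm replicate 2 (0.72), where the edgeR adjusted p was 0.0875, 0.0986 and 0.273. With the miRNA total as library size it did not pass either (1.33, edgeR adjusted p = 0.128). Mir200a rose by 3.85 (SE 0.72) in Defb41 controls. In Stra8 controls its change was 0.62 (SE 0.58, 95% interval -0.58 to 1.83), with 98.9, 708, 257 and 259.5 RPM in cauda sperm against 74.4 to 502 RPM in testis sperm. Leaving out 1 library moved it between -0.07 and 1.47, and without testis sperm replicate 1 Mir200a passed (1.47, edgeR adjusted p = 0.0286).
The median change over all features went the other way, at -1.68 in Stra8 controls and -0.96 in Defb41 controls, while the members' medians were 2.21 and 3.46. With composition factors (TMM) in place of read totals, the Stra8 control changes were larger, 5.15 for Mir141, 3.49 for Mir200c and 2.85 for Mir200a, and Mir200a passed the threshold (edgeR, adjusted p = 0.00613). Scaled to miRNA reads alone, Mir200c of Stra8 controls did not pass (1.33, edgeR adjusted p = 0.128). In cKO mice Mir141 rose by 4.18 (SE 0.69) in the Stra8 line and by 6.83 (SE 0.69) in the Defb41 line, and the 5 members by 2.34 to 4.63 and by 2.91 to 6.83.

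Marker miRNAs of other cell types were summed in the libraries of this comparison, which for Defb41 cauda sperm are those of series 1. The 8 germ cell miRNAs had a median of 21599 RPM in testis and 5823 RPM in cauda sperm of Stra8 controls, and of 8669 and 2334 RPM in Defb41 controls. The 5 blood miRNAs had medians of 25054 and 475 RPM in Stra8 controls and of 14497 and 761 RPM in Defb41 controls. The sums of both lists did not overlap between testis and cauda sperm in either control group. The 6 smooth muscle miRNAs had medians of 18560 and 5558 RPM in Stra8 controls, but 6400 RPM in testis and 7117 RPM in cauda sperm of Defb41 controls, with overlap. Mir203 and Mir205 of squamous or basal epithelium together had medians of 359.5 and 213.5 RPM in Stra8 controls and of 61.9 and 83.7 RPM in Defb41 controls, overlapping in both lines. None of these markers was at 0 in any group, and their part in the members' change was not tested.
The gain of Mir141 and Mir200a was larger in the Defb41 line, where the cauda sperm libraries used were those of series 1. In Defb41 control cauda sperm the mean of Mir141 was 2466 ± 1172 RPM in series 1 and 647 ± 956 RPM in series 2 (SD, n = 4 each). That of Mir200a was 108 ± 41.8 and 112 ± 139 RPM. Series 2 has no testis sperm libraries, and the gain with its cauda sperm was not tested. The mix of members in Defb41 control testis sperm was nearer to that of series 2 cauda sperm. There the mean log2 ratio of Mir429 to Mir141 was -1.28, against -4.67 in series 1 and -0.93 in series 2 control cauda sperm. The part of this shift in the mix in the gain was not tested. The difference between the lines' changes in controls was 3.97 (SE 0.75) for Mir141 (edgeR interaction, adjusted p = 5.54e-04) and 3.23 (SE 0.84) for Mir200a (adjusted p = 0.0144), 2 of 5 members, where 10.2% of features differed in this direction. In cauda sperm the lines overlapped for Mir141 and Mir200a, and in testis sperm the Stra8 control libraries were all higher. The differences of Mir200b (0.06), Mir429 (0.42) and Mir200c (1.51) did not pass. Without replicate 1 of Stra8 control testis sperm, Mir200a differed by 2.39 and no longer passed, and with DESeq2 by 1.97 (adjusted p = 0.0919).

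**Figure D4:**
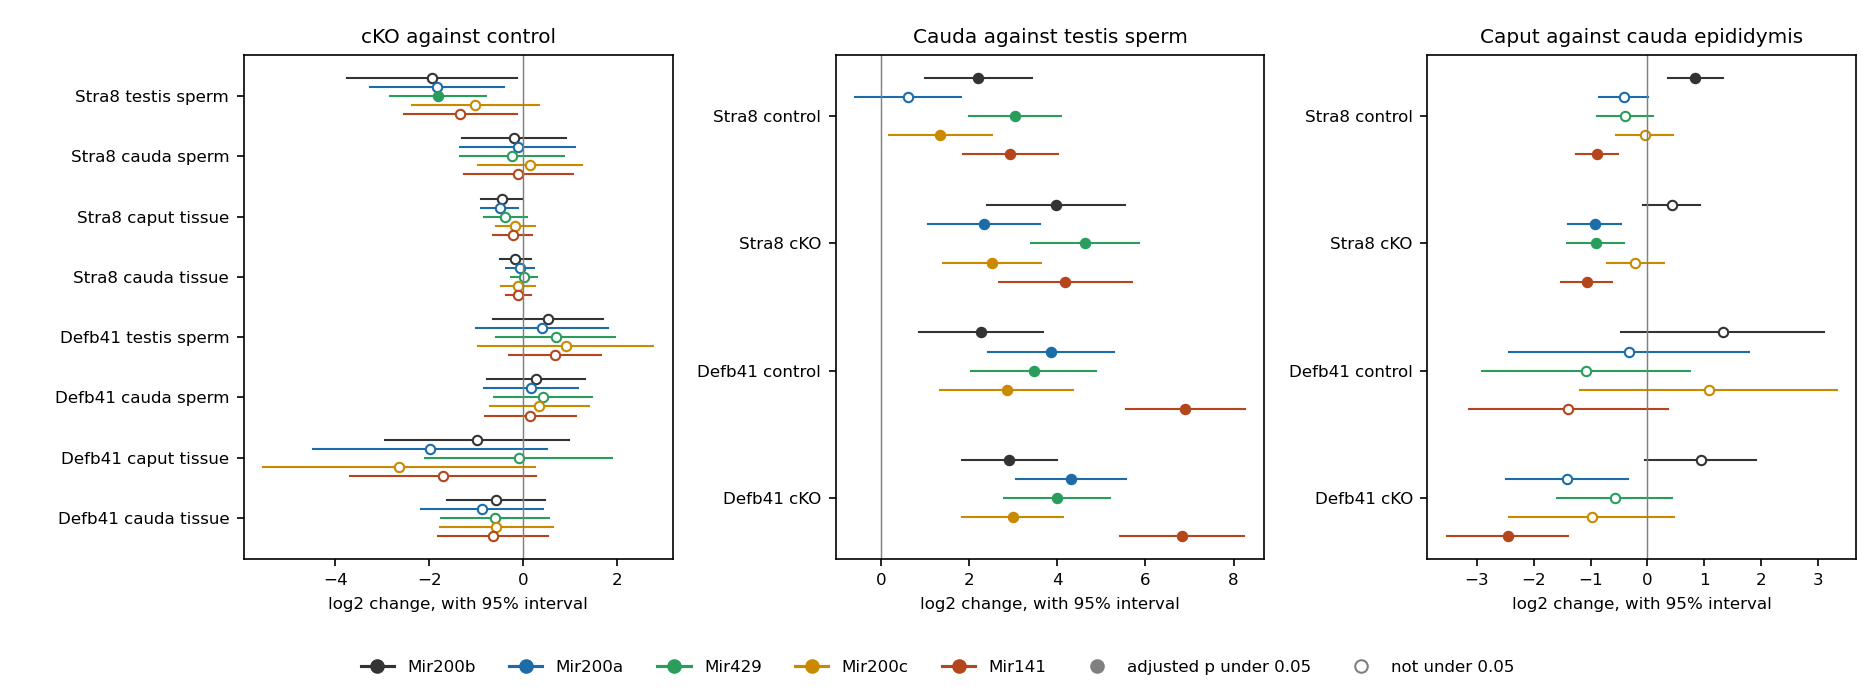
Fitted log2 change of each member with its 95% interval for cKO against control (left), cauda against testis sperm (middle) and caput against cauda epididymis (right); filled points passed an adjusted p of 0.05 in edgeR. In the left panel Mir429 in Stra8 testis sperm (-1.82) is the filled point, and in the middle panel every point lies above 0, with Mir200a of Stra8 controls (0.62) open.

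The comparison of cKO with control asks what the family loses with Dgcr8. In testis sperm of the Stra8 line, Mir429 fell by 1.82 on the log2 scale (SE 0.47, edgeR adjusted p = 0.0208, 4 against 4), from 56.5, 32.9, 37.1 and 17.8 RPM in Stra8 controls to 10.6, 16.3, 8.51 and 5.53 RPM in cKO. The groups did not overlap, since the highest cKO library lay below the lowest control. It was the 1 member of 5 that passed, where 13% of all features and 29.5% of miRNAs were lower. Mir200b read 11.8, 10.7, 2.43 and 1.68 RPM in cKO, and its change was -1.94 (SE 0.82, 95% interval -3.75 to -0.13, edgeR adjusted p = 0.134). Mir200a read 68.4, 106, 51.2 and 16.3 RPM, a change of -1.84 (SE 0.65, edgeR adjusted p = 0.0897). Mir141 read 129.5, 249.7, 100.5 and 37.4 RPM, a change of -1.34 (SE 0.55, edgeR adjusted p = 0.122). Mir200c read 18.1, 16.2, 19.1 and 5.14 RPM, a change of -1.02 (SE 0.62, edgeR adjusted p = 0.282). Apart from Mir429, the cKO libraries of each member overlapped the controls.
miRNAs as a class had a median change of -1.46 here, all features one of -0.60 and the members one of -1.82. Scaled to miRNA reads alone, Mir429 changed by -0.40 (edgeR adjusted p = 0.679) and Mir200c by 0.40, and no member passed. The call of Mir429 did not hold in 6 of the 8 fits that left out 1 library (log2 change -2.14 to -1.52). It held without replicate 4 of the controls and without replicate 2 of the cKO. The germ cell miRNAs summed to 20161 to 26693 RPM in these controls and 2212 to 5261 RPM in cKO, and the blood miRNAs to 8816 to 35430 and 3562 to 19902 RPM. Their part in the members' levels was not tested.

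In Stra8 cauda sperm none of the 5 members passed in edgeR or DESeq2, where 5.59% of features did in edgeR. Mir141 read 3874, 3716, 818 and 931 RPM in cKO against the 1363 to 5339 RPM of controls, a change of -0.10 (SE 0.55, 95% interval -1.26 to 1.05). The changes of the 5 ran from -0.24 (Mir429) to 0.15 (Mir200c), and no member had an unadjusted p below 0.05. Whether the cKO change itself differed between testis and cauda sperm was fitted as an interaction, which gave 1.17 to 1.75 for the 5 members. None passed, where 2.9% of features did, and the lowest adjusted p was 0.294 for Mir429 in edgeR.
In the Stra8 epididymis no member passed in edgeR or DESeq2, in caput (0% of features called in edgeR) or in cauda (1.95%). In caput DESeq2 also called 0 features, and 103 had an unadjusted p below 0.05 in edgeR. The changes ran from -0.51 (Mir200a) to -0.17 (Mir200c) in caput and from -0.17 (Mir200b) to 0.01 (Mir429) in cauda. Mir200a and Mir200b of caput had unadjusted p of 0.0147 and 0.039, beside a median of -0.45 over all features.

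In the Defb41 line the family had no call at any site. In caput, where Defb41 mRNA was found, Mir141 read 875, 1911 and 1848 RPM in controls and 789, 369 and 259.7 RPM in cKO. The control value of 1911 RPM is that of the library of 615991 reads. The groups did not overlap, but the change of -1.71 (SE 0.91, 95% interval -3.68 to 0.27) did not pass (edgeR adjusted p = 0.632, 3 against 3), and 0% of features were called at this site in edgeR. DESeq2 called 4 features and no member there, and 63 features but no member had an unadjusted p below 0.05 in edgeR. Mir200c had the largest change, -2.64 (SE 1.33), and its control value of 369 RPM came from the library of 615991 reads. Without that library the change was -1.09. Mir200a changed by -1.99 (SE 1.14), and its highest caput value, 438 RPM, was also of that library. Mir429 read 1046, 409 (that library) and 1439 RPM in controls and 1524, 628 and 549.7 RPM in cKO, a change of -0.10 (SE 0.91).
In Defb41 cauda epididymis the 5 changes ran from -0.88 (Mir200a) to -0.58 (Mir200c), and none passed, where 6.36% of features did. Mir141 read 1403, 6301, 3237 and 5263 RPM in controls and 3047, 1774 and 2982 RPM in cKO, and so overlapped. In Defb41 cauda sperm the changes ran from 0.15 (Mir141) to 0.42 (Mir429) with series as a term, none passing where 12.3% of features did. The mean RPM of every member was higher in cKO than in controls in series 1 and lower in series 2. For Mir429 the means were 217 RPM in cKO and 92.6 RPM in controls in series 1. In series 2 they were 271 ± 317 and 354 ± 525 RPM (SD, n = 4 each). No member passed in either series alone. In Defb41 testis sperm they ran from 0.40 (Mir200a) to 0.90 (Mir200c), none passing where 1.5% did. Mir141 there read 35.2, 39.6, 32.7 and 22.7 RPM in cKO, over controls of 11.98 to 36.7 RPM.
The cKO effect on Mir429 in testis sperm differed between the lines by 2.51 (SE 0.76, edgeR interaction, adjusted p = 0.0361), 1 of 5 members, where 15.8% of features differed in this direction. The other 4 differences ran from 1.92 (Mir200c) to 2.47 (Mir200b) and did not pass. Scaled to miRNA reads, the difference for Mir429 was 0.90 (adjusted p = 0.685), and it lost its call in 10 of 16 fits that left out 1 library. In cauda sperm the same interaction gave 0.19 to 0.66, with no member called (5.35% of features), nor was any called for genotype by site in the Defb41 line (14.5%).

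Caput and cauda lie at the start and the end of the duct, and the median change of all features from cauda to caput was 0.52 in Stra8 controls, 0.60 in Defb41 controls, -0.21 in Stra8 cKO and 1.37 in Defb41 cKO. Mir141 was lower in caput than in cauda in 3 of the 4 combinations of line and genotype. With series as a term, its change was -0.88 (SE 0.18, edgeR adjusted p = 0.00254) in Stra8 controls and -1.07 (SE 0.22, adjusted p = 1.88e-04) in Stra8 cKO. In Defb41 cKO it was -2.46 (SE 0.49, adjusted p = 0.0334), and -1.39 (SE 0.81, adjusted p = 0.268) in Defb41 controls. Without the series term the Stra8 control change was -0.78 and did not pass (adjusted p = 0.141).
Mir141 was the 1 member of 5 lower in caput in Stra8 controls, where 8.92% of features were. Mir200b was the 1 member higher, by 0.84 (SE 0.23, edgeR adjusted p = 0.00827), where 33.3% of features were. It read 114, 146, 184, 151, 242, 207 and 148 RPM in caput and 89.4, 73.2, 67.9, 64.6, 122 and 147 RPM in cauda, so the segments overlapped. That call did not hold with TMM factors (0.58, adjusted p = 0.114) or DESeq2 (0.44, adjusted p = 0.245), nor in series 2 alone (0.57, adjusted p = 0.184). Mir200a (-0.41) and Mir429 (-0.39) passed as lower with TMM factors (-0.73 and -0.69) and with DESeq2 (-0.87 and -0.83), and not as fitted on read totals. In Stra8 cKO 3 of 5 were lower in caput (35.3% of features), with Mir200a at -0.92 (SE 0.23) and Mir429 at -0.91 (SE 0.24) beside Mir141. In series 1 alone Mir200a (-0.49) and Mir429 (-0.30) did not pass. Mir200b (0.43, not called) passed as higher in caput with TMM factors (0.59), miRNA-total scaling (0.83), DESeq2 (0.52) and in series 1 alone (1.04). No member was called in Defb41 controls (0% of features in edgeR, with 360 at an unadjusted p below 0.05 and 120 called by DESeq2, no member among them), and Mir141 was the 1 of 5 that was lower in Defb41 cKO (0.582%). There the replicate numbers were taken to pair the libraries, on weak correlations (r of 0.138 to 0.246) and not on the labels' word. With the pair as a block Mir200a also passed (-1.42, edgeR adjusted p = 0.0492). Without replicate 2 or 3 of the caput or replicate 1 of the cauda, Mir141 of Defb41 cKO did not pass (-2.33 to -2.17), and with TMM factors it was -3.21 (adjusted p = 0.133).
The 6 smooth muscle miRNAs moved with segment and series. Their summed level in Stra8 controls was 112759 to 153943 RPM in caput and 379839 to 450186 RPM in cauda in series 1, and 40435 to 57094 and 191049 to 226405 RPM in series 2. Their part in the members' changes was not tested.

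Levels in Stra8 tissue also differed between the series, most in cauda epididymis. In Stra8 cKO cauda epididymis, Mir141 read 3727, 3001, 3843 and 3574 RPM in series 1 and 10668, 12635, 9332 and 11321 RPM in series 2, a mean 3.11 times as high. Mir200a was 4.2 times, Mir429 2.85 times, Mir200b 2.26 times and Mir200c 1.53 times as high in series 2, each without overlap. Each gave p = 0.0286, the smallest the exact permutation test allows for 4 against 4, and 0.122 after adjustment over 30 tests. In caput Mir141 was 2.42 times and Mir200a 3.02 times as high in series 2 in controls, and 1.78 and 2.39 times in cKO, without overlap, whereas Mir200c was 0.958 and 0.697 times and Mir200b 1.34 and 1.02 times as high, with overlap. The cauda controls gave 2.61 times for Mir141 and 3.7 times for Mir200a (4 against 2 libraries, smallest possible p 0.133). The smooth muscle miRNAs summed to 391495 to 435483 RPM in series 1 and 179307 to 219732 RPM in series 2 of the cKO. Mir203 and Mir205, of squamous and basal epithelium, summed to 164 to 176 RPM in series 1 and 438 to 601 RPM in series 2 there. Their part in the family's difference was not tested.

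The 5 miRNAs most like the family were sought by correlation over the 16 group means, among 209 miRNAs with a mean of at least 10 RPM. Each miRNA was set against the mean of the members' log2(RPM + 1), in which every member weighs the same. The 5 were Mir10a (r = 0.94), Mir183 (0.92), Mir205 (0.91), Mir182 (0.88) and Mir10b (0.83). Mir183 and Mir182 are neighbours in one cluster, and Mir205 is known from basal epithelial cells. Mir203, listed with Mir205 as a marker of squamous or basal epithelium, gave -0.19. Mir34c, a miRNA of late male germ cells, gave -0.67, and the blood miRNA Mir486 gave -0.63. Mir143 of smooth muscle gave 0.51. Groups share libraries of one line and method, so these are descriptions.

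mRNA of the epididymis, measured in the Stra8 line, shows the levels at which known targets stood. The lists held 17 genes known as miR-200 targets, 15 epithelial genes and 10 mesenchymal genes. Zeb1 stood at 0.47, 0.29 and 0.66 TPM in control caput and at 1.96, 1.37, 1.68 and 2.31 TPM in control cauda, lower in caput with no overlap. Its change was -0.94 (SE 0.22) on the log2(TPM + 1) scale, which understates low genes (limma, adjusted p = 0.00721). Zeb2 was at 0 to 0.66 TPM in every control library and did not pass the filter of 1 TPM. In the same comparison 21.1% of all genes were lower in caput and 18.7% higher.
Of the targets, 13 of 17 passed the filter, of which 4 were lower in caput and 1 higher. Beside Zeb1, the lower ones were Fn1, the matrix protein fibronectin (-1.98), the actin regulator Cfl2 (-0.86) and the vesicle coat gene Sec23a (-0.70). Flt1, a receptor for vascular growth factors, was higher by 0.78. The median change of the targets was -0.41, beside -0.11 over all genes. All 15 epithelial genes passed the filter, 5 of them higher in caput and 1 lower, with a median of 0.09. The higher ones were Esrp2, a splicing factor of epithelia (1.62), the tight junction gene Cldn4 (0.95), the keratin Krt18 (0.86), the small GTPase Rab25 (0.84) and the transcription factor Elf3 (0.66), and its relative Ehf was lower (-0.99). Cdh1, which encodes E-cadherin, stood at 34.2 ± 4.62 TPM in caput and 45.7 ± 16.4 TPM in cauda (SD, n = 3 and 4), and Epcam at 121 ± 8.6 and 129 ± 30.3 TPM, and neither passed. Of the mesenchymal genes 8 of 10 passed the filter, with a median of 0.06. The smooth muscle genes Acta2 (-2.10) and Des (-2.64) were lower in caput, and the repressor Snai1 was higher by 0.93. In the small RNA of Stra8 controls, Mir141 was lower in caput, the same way as Zeb1, whereas Mir200b was higher (0.84). Mir200a, Mir429 and Mir200c were not called there. The libraries of the 2 assays are not matched by label. The calls of Cfl2, Elf3, Sec23a and Snai1 each failed in some of the 7 fits that left out 1 library, and those of Cfl2, Elf3 and Sec23a without the filter.
Between cKO and control, none of the listed genes was called in caput (0.824% of all genes) or in cauda, where limma called 0 of 11527 genes (0%). In cauda 1461 genes had an unadjusted p below 0.05, with 2 targets, 1 epithelial and 1 mesenchymal gene among them. In caput the targets had a median change of 0.39 beside 0.21 over all genes, and in cauda -0.38 beside -0.15. The epithelial medians were 0.22 and -0.15, and the mesenchymal medians -0.03 and -0.41. Zeb1 read 0.97, 0.42 and 1.15 TPM in cKO caput and 1.38, 1.12, 0.9 and 1.08 TPM in cKO cauda, where its change was -0.41 (SE 0.17, limma adjusted p = 0.378). Dgcr8 itself stood at 1.44 and 1.48 TPM in control and cKO caput and at 2.23 and 1.28 TPM in cauda. These are whole tissues, and the germ cell miRNAs summed to 486 to 610 RPM in control and 236 to 513 RPM in cKO cauda small RNA. Dgcr8 mRNA of sperm was not analysed here. In Stra8 controls the caput marker Lcn8 had a mean of 22143 TPM in caput and 6.64 TPM in cauda. Of the cauda markers, Crisp1 stood at 44.3 TPM in caput and 6472 TPM in cauda, and Wfdc10 at 8377 and 22941 TPM. Spink11, also listed for the cauda, went the other way, at 169 and 17.1 TPM. Pate4 was low in both segments, at 0.447 and 1.7 TPM.

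**Figure D5:**
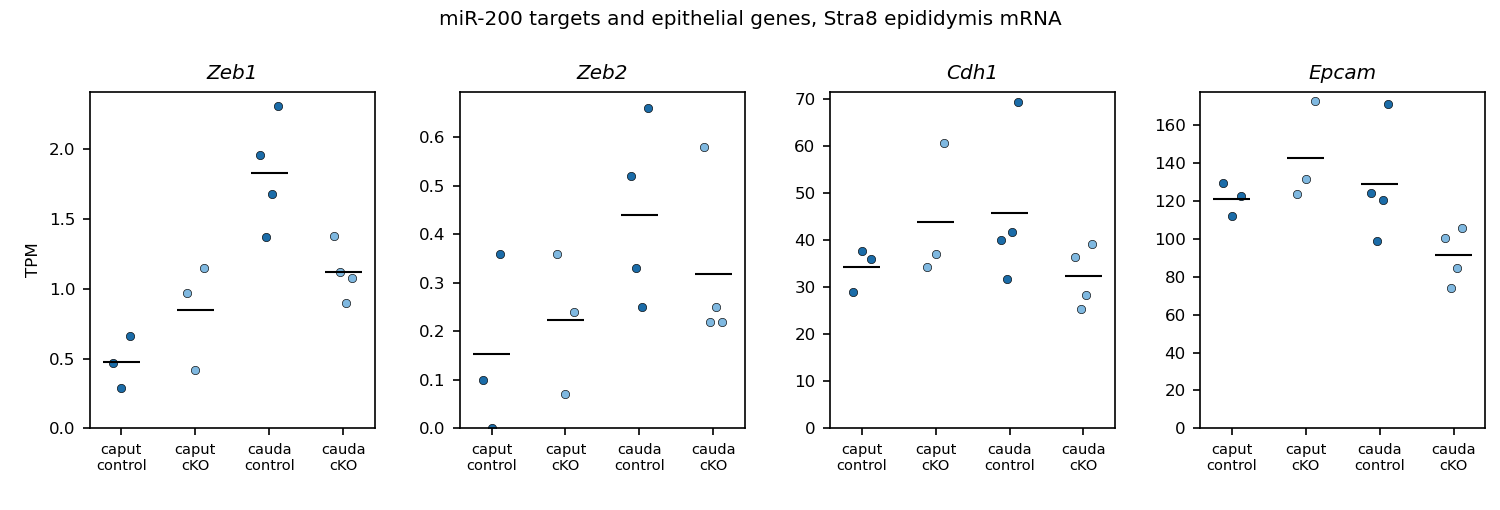
Level (TPM, linear axes from 0) of the miR-200 targets Zeb1 and Zeb2 and of the epithelial genes Cdh1 and Epcam in Stra8 epididymis mRNA, 1 point per library and a line at each group mean, for caput control and cKO (n = 3 each) and cauda control and cKO (n = 4 each). Zeb1 lies at 0.29 to 0.66 TPM in control caput and at 1.37 to 2.31 TPM in control cauda, and Cdh1 and Epcam overlap between segments.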

How the data were processed

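Small RNA of 18 to 40 nt was cut from gels and sequenced from sperm (40 libraries) and epididymis (42 libraries); per the labels' protocols the small RNA libraries were made with the Illumina TruSeq kit and the tissue mRNA libraries with a stranded Illumina kit. Bowtie2, RSEM and the build mm10 are named in the submitters' processing notes, with no versions. Per feature and library, the deposited small RNA tables give read counts made by the authors, and the deposited mRNA tables hold TPM values as the authors made them. How reads with several matches were counted is not given in the sources used here.

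Counts were divided by each library's column total to give RPM, and tested with edgeR 4.0.16 (quasi-likelihood, R 4.3.3), with the column total as library size, a filter that kept features reaching 10 counts in a number of libraries equal to the smaller group, and library series as a term where both occur. P-values were adjusted by Benjamini-Hochberg over all features, with a threshold of 0.05. TPM were tested with limma 3.58.1 (trend and robust) on log2(TPM + 1), for genes of at least 1 TPM by the same rule. Intervals are at 95% from the fit. Ratios between members had 0.5 added to each count, and exact permutation tests were two-sided (scipy 1.17.1). The edgeR and limma fits were tried on simulated data for some comparisons of cKO with control and of cauda with testis sperm. No interaction, no caput against cauda comparison and no DESeq2 fit was simulated.

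All 5 members were named throughout, the 5 most alike miRNAs by r, and of the mRNA lists Zeb1, Zeb2, Cdh1, Epcam and any gene that passed. The members and lists were chosen with earlier results of these data known, and the tests of member ratios after the values were seen. One library whose title and genotype label disagree was put in no group, and mRNA of the Defb41 line was not used here. Replicate numbers were taken to pair libraries where the deviations of every same-numbered pair correlated above 0.1 over both series. This held between caput and cauda of Defb41 cKO (r of 0.138 to 0.246). In Stra8 caput the genotype pairs correlated at 0.397 to 0.793 in series 1 and at -0.00734 to 0.0302 in series 2, and with the block no member was called there either.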

Additional observations from a re-analysis of the deposited data

Results flagged for a closer look

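Single libraries stood far from their groups in 8 of 65 sets of 4 to 8 libraries, by the gap to the nearest neighbour over the range, a rule that flags about 1 in 20 sets by chance. In Defb41 control cauda sperm, replicate 8 was high for Mir429 (1139 RPM), Mir200b (385 RPM) and Mir200a (320.2 RPM), and replicate 8 of the cKO was high for Mir429 (745 RPM). In Defb41 control testis sperm, replicate 1 was high for Mir200b (14.6 RPM) and Mir200c (10.96 RPM). In Stra8 control cauda sperm, replicate 2 was high for Mir141 (5339 RPM) and Mir200c (155 RPM). Among effects that differed between the lines by an interaction test were the cKO change of Mir429 in testis sperm (log2 difference 2.51) and the gain from testis to cauda sperm of Mir141 (3.97) and Mir200a (3.23) in controls. For the gain, the Defb41 cauda sperm libraries were those of series 1.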

How the results depend on the processing

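Of 147 counts of members or listed genes called under another setting, 134 stayed within 1.5 times the reported count, and no called value changed its direction. In Stra8 testis sperm cKO (1 member called as reported), miRNA-total scaling called 0, the replicate block 4 (Mir141, Mir200a, Mir200b and Mir429) and leaving out 1 library 0 to 3. For caput against cauda in Stra8 controls (2 as reported), the replicate block, no series term and series 2 alone each called 1. In Defb41 cKO caput against cauda (1), TMM called 0, miRNA-total scaling, DESeq2 and the replicate block 2 each, and leaving out 1 library 0 to 4. The genotype by line difference in testis sperm (1) called 0 with miRNA-total scaling, 2 with DESeq2 and 0 to 4 without 1 library. The site by line difference in controls (2) called 1 with DESeq2 and 1 to 3 without 1 library. In Stra8 cauda mRNA (0), the replicate block called 1 gene, Epcam (-0.48, limma adjusted p = 0.0439), and for the caput against cauda mRNA lists (14 called as reported) 10 to 15 genes were called without 1 library. The cause of these moves was not tested. For single members and genes, 816 of 915 values under other settings and 1402 of 1518 without 1 library counted as unchanged. A log2 change counted so if it kept its sign and its call, whatever its size. A level or a ratio counted so if it moved by less than the SD. Mir141 in cauda against testis sperm of Stra8 controls, for example, kept its call while its change ran from 2.88 to 5.19 across settings. Some uncalled changes between cKO and control changed sign with the scaling or between the series and are given as values only. Same-numbered libraries of Stra8 testis sperm did not deviate together (r from -0.195 to 0.0252), so the block there rests on numbers alone. Depth limits Mir200c most, with as few as 8 reads in testis sperm. RPM depend on all other small RNAs, and the Defb41 caput has 3 libraries a group, 1 of them shallow.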

Other observations

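One Stra8 caput library, whose title and genotype label disagree, was left in no group. It held Mir141 at 2177 RPM, Mir200c at 144 RPM, Mir200a at 110.2 RPM, Mir200b at 107 RPM and Mir429 at 105 RPM.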
